A study of Mus musculus with 8 samples.

Results

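Ras, Ral and Rap are small GTPases that cycle between a GTP-bound active form and a GDP-bound inactive form. Guanine nucleotide exchange factors (GEFs) load them with GTP, and GTPase-activating proteins (GAPs) speed the return to GDP. In T cells, diacylglycerol made downstream of the T cell receptor recruits RasGRP exchange factors to membranes, the adaptor-bound exchange factor Sos1 adds to Ras loading, and active Rap1 is known for its control of integrin adhesion. Active Ras feeds the RAF, MEK and ERK kinases and, through Ral exchange factors such as Ralgds, the Ral GTPases.

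Transcripts of 10 genes encoding such regulators were followed in maturing CD8 thymocytes with and without Ndrg3, a member of the N-myc downstream-regulated gene family. They were the exchange factors Rasgrp1, Rasgrp2, Rasgrp4, Sos1 and Ralgds, and the GTPase-activating proteins Rasa1, Rasa2, Rasa3, Rasal3 and Rap1gap2. These 10, of 47937 genes in the count table, were chosen by their function with the measured differences between the same control and knockout libraries already known. Their levels and differences are therefore given as a description. Where one is said to be past the threshold, this places it in the fit over all genes that was known at the choice and is not independent evidence, also when libraries are left out.

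The libraries came from sorted thymocytes labelled CD8SP TCRb+ MHC-I high, from mice 6-7 weeks old. The 4 Ndrg3ctrl animals were Ndrg3 +/fl;Lck-cre+ and thus carried 1 floxed allele and the Cre transgene, and the 4 Ndrg3TKO animals were Ndrg3 fl/fl;Lck-cre+ with 2 floxed alleles. The comparison asks what the second floxed allele changes, since both groups express Cre from the proximal Lck promoter, which acts from early thymocyte stages, so no group is free of Cre or has both alleles intact throughout. Each library is labelled as a biological replicate and was treated as 1 mouse.

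The libraries held 21126698 to 32668081 counts. Their means were 26779991 in Ndrg3ctrl and 31103130 in Ndrg3TKO (exact permutation test over 70 splits, two-sided, p = 0.0571). Levels are CPM, that is counts scaled to a common library size after TMM normalisation, and 3 counts, taken as the floor of detection, correspond to 0.0918 to 0.142 CPM. Ndrg3 itself measured 80.7 ± 1.00 CPM in Ndrg3ctrl and 51.8 ± 3.01 CPM in Ndrg3TKO (SD, n = 4 each), with all 4 knockout libraries below all 4 controls (edgeR quasi-likelihood test, log2 fold change -0.64, SE 0.0526, adjusted p = 1.04e-05). The floxed part is 1 exon, whereas counts cover the whole gene, so this value does not give the share of cells with a deleted allele. The 11 CD8SP markers (among them Cd8a, Cd3e and H2-K1) summed to 8042 to 9197 CPM in Ndrg3ctrl and 8191 to 8924 CPM in Ndrg3TKO, and Cd4 lay at 0.668 and 0.564 CPM. Within that list the maturity genes Klf2 (332 ± 29.5 and 278 ± 22.4 CPM) and S1pr1 (396 ± 28.1 and 347 ± 16.0 CPM), named after their values were seen, were below the control mean without passing the threshold by edgeR (adjusted p = 0.130 and 0.203). Transcripts of 4 Y-linked genes were present in 1 Ndrg3ctrl library (replicate 2) and 2 Ndrg3TKO libraries (replicates 2 and 3) and near 0 in the others, so the groups were not balanced for sex. In these bulk libraries, fewer cells with a transcript and less transcript per cell cannot be told apart.

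Between the groups, 168 of 14633 tested genes passed an adjusted p of 0.05 (1.15%), 116 higher in Ndrg3TKO (0.793%) and 52 lower (0.355%), and 1030 genes (7.04%) had groups that did not overlap. All 10 regulators had enough counts to be tested. Of them, 4 were past the threshold, Ralgds and Rasgrp4 higher and Rasa3 and Rap1gap2 lower, and 5 did not overlap between the groups, which adds Rasgrp1. Since the same contrast was known when the genes were picked, nothing is read from these counts against the background. The median log2 difference of the 10 was 0.0054 and their median absolute difference 0.13, beside -0.0033 and 0.088 over all tested genes.

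The windows before the transcription start of Ralgds, Rasa3 and Rap1gap2 are shown because these transcripts differed between the groups and their upstream sequence was at hand. RefSeq promoter windows (GRCm38.p6) matched 9 of the 10 genes, 15 windows in all, and Rasgrp4 had none. The run for Ralgds is chr2:28512917-28513124 on the plus strand, that for Rasa3 is chr8:13677604-13677837 on the minus strand, and that for Rap1gap2 is chr11:74610916-74611165 on the minus strand. Each is the first listed start of its gene, begins 250 bases before it, stops where an annotated exon begins and reads 5′ to 3′, with GC boxes and CCAAT boxes in capitals.
Ralgds: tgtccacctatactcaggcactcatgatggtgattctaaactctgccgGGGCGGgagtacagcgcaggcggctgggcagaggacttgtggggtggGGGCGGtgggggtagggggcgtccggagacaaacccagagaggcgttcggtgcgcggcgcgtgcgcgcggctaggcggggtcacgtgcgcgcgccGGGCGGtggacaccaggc
Rasa3: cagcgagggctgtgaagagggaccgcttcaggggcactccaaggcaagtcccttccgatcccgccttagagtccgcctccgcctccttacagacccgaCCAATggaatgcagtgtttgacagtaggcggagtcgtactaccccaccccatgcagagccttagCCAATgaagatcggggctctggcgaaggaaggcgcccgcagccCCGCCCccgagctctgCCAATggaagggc
Rap1gap2: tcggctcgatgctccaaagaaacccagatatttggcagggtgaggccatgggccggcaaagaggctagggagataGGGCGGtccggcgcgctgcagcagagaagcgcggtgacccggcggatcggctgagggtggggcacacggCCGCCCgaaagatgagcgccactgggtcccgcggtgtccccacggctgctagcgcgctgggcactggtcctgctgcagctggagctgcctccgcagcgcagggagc

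Six-letter GC boxes, GGGCGG on either strand, stood at 3 places before Ralgds, 2 before Rap1gap2 and 1 before Rasa3, where 3 CCAAT boxes were also found. The GC box was present in 14 of the 15 windows of 250 bases, against 32.7% of all 32851 windows and 42.6% of the 21263 of protein-coding genes. These 15 windows come from 9 genes and are not independent, and those of Rasal3 overlap almost fully. Letters were counted over the full 250 bases, which in some windows, those of Rasal3 among them, include annotated exons. These windows are rich in G and C (69.2% before Ralgds, 64.4% before Rasa3 and 68.8% before Rap1gap2), and such letters alone show no factor bound there. The CCAAT letters occurred in 3 windows (33.8% of all), the RUNX letters TGTGGT in 3 (14.0%) and the ETS letters CCGGAAG in 2 (6.91%). A T-box core, GGTGTGA, was in 1 of the 15 windows (3.33% of all), that of a downstream start of Rap1gap2, where it overlaps a GC box. The EGR letters GCGNGGGCG were in 0 of 15, beside 4.70% of all windows. Among protein-coding windows the shares were 35.4% for CCAAT, 12.4% for RUNX, 8.98% for ETS, 3.08% for T-box and 6.34% for EGR.

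Ralgds, an exchange factor for Ral that binds active Ras, differed most among the 10. Its gene lies at chr2:28513125-28553081 (ENSMUSG00000026821). The Ndrg3ctrl libraries gave 15.0, 19.0, 14.0 and 14.5 CPM for replicates 1 to 4 and the Ndrg3TKO libraries 29.5, 30.1, 34.8 and 26.5 CPM. The lowest knockout library was above the highest control, and the means were 15.6 ± 2.26 and 30.2 ± 3.44 CPM (SD, n = 4), a 1.94-fold difference (log2 0.96, SE 0.104) resting on 386 to 1042 counts per library. With any 1 of the 8 libraries left out, the difference lay between 0.88 and 1.05 on the log2 scale. Its nearest tested neighbour downstream, Gtf3c5, differed by 0.05 (SE 0.0605).

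Among the RasGRP exchange factors, Rasgrp1 was the most abundant and differed little between the groups. Rasgrp1 is the main diacylglycerol-dependent Ras exchange factor of thymocytes (chr2:117279993-117343001, ENSMUSG00000027347). It measured 708, 725, 696 and 736 CPM in Ndrg3ctrl and 678, 661, 670 and 645 CPM in Ndrg3TKO. All knockout libraries lay below all controls, yet the gap was small, 716 ± 17.6 against 664 ± 14.3 CPM (log2 -0.11, SE 0.0526), and was not past the threshold. Rasgrp2, which acts mainly on Rap1 (chr19:6399340-6415216, ENSMUSG00000032946), gave 467, 456, 510 and 539 CPM in Ndrg3ctrl and 504, 489, 439 and 472 CPM in Ndrg3TKO. Its groups overlapped (log2 -0.05, SE 0.0648).

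Rasgrp4, a diacylglycerol-responsive Ras exchange factor best known from mast cells, was scarce and higher in the knockout (chr7:29134851-29153961, ENSMUSG00000030589). It gave 12.0, 8.94, 8.19 and 9.73 CPM in Ndrg3ctrl and 21.4, 12.9, 16.4 and 15.8 CPM in Ndrg3TKO, 1.70-fold higher on average (log2 0.77, SE 0.154, from 182 to 647 counts). The groups did not overlap, but Ndrg3ctrl replicate 1 and Ndrg3TKO replicate 2 were only 12.0 and 12.9 CPM. Leaving out either of these kept Rasgrp4 past the threshold (log2 0.89 and 0.87), whereas leaving out any of the other 6 libraries did not, with the difference between 0.62 and 0.79.

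The measurement of Rasgrp4 shares sequence with another gene and a marker with another cell type. Of its exonic bases, 978 (15.4%) are also exonic in Fam98c on the opposite strand, and the strand setting used in counting is not given in the sources used here. Fam98c stood at 23.0 ± 1.47 CPM in Ndrg3ctrl and 23.2 ± 2.53 CPM in Ndrg3TKO (log2 0.01, SE 0.0847). The 6 mast cell and basophil markers summed to 37.5 to 47.6 CPM in Ndrg3ctrl and 35.4 to 46.3 CPM in Ndrg3TKO, nearly all of it Kit, with 42.8 and 39.8 CPM on average. Fcer1a and Gata2 were at 0 counts in all 8 libraries. Of the 6 markers, 2 had a higher mean in Ndrg3TKO. They were Hdc (0.265 and 0.354 CPM, 4 to 13 counts per library, overlapping groups) and Cpa3 (0 to 2 counts). Kit and Ms4a2 (0 to 1 counts) had lower means there. The part of mast cells in the Rasgrp4 values was not tested.

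Sos1, the Ras exchange factor brought to membranes by the adaptor Grb2, did not separate the groups (chr17:80393751-80480453, ENSMUSG00000024241). Its control libraries gave 157, 154, 165 and 155 CPM and its knockout libraries 173, 160, 165 and 162 CPM. The ranges overlapped (log2 0.06, SE 0.0478).

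**Figure D1:**
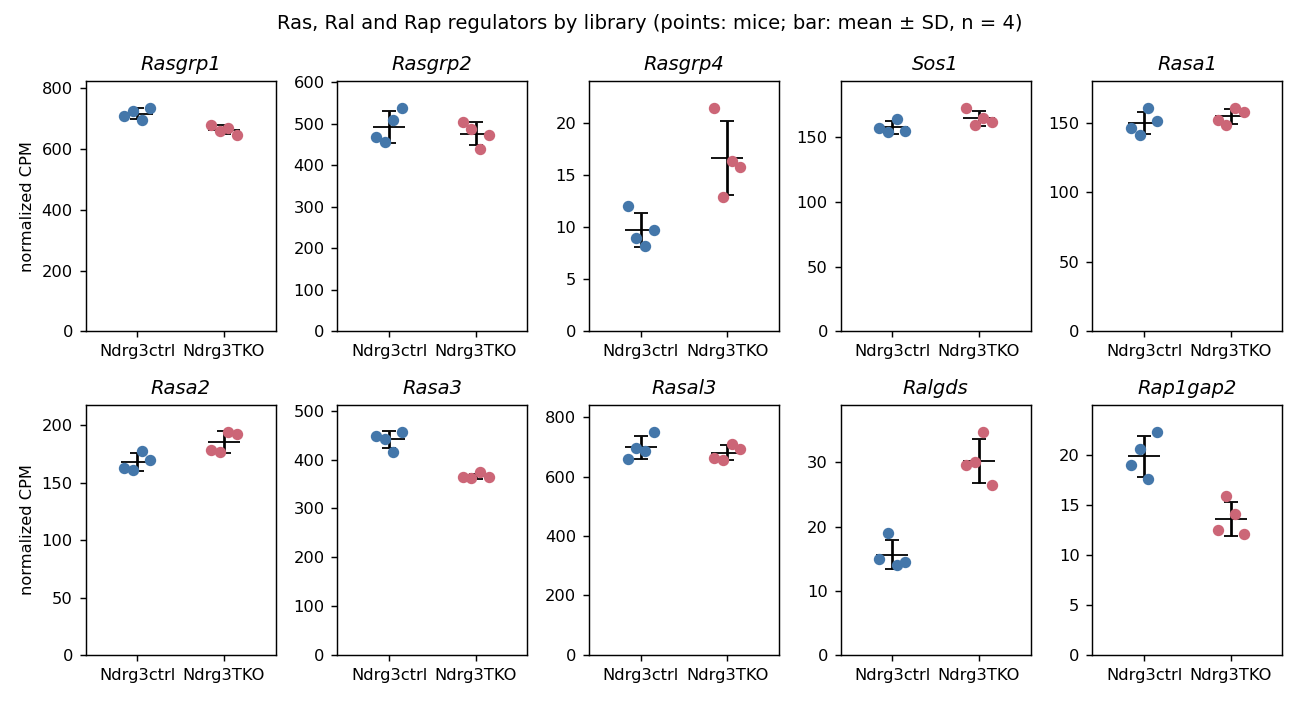
Normalized CPM (y axis, from 0) of each of the 10 regulators in every Ndrg3ctrl and Ndrg3TKO library (x axis). Points are mice and bars give the mean ± SD (n = 4). Ralgds and Rasgrp4 sit higher in all Ndrg3TKO libraries, Rasa3, Rap1gap2 and Rasgrp1 sit lower, and the other 5 overlap.

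Of the GTPase-activating proteins for Ras, only Rasa3 was past the threshold in this fit. Rasa3 acts on both Ras and Rap1 and is regulated at the membrane by inositol phosphates and phosphoinositides (chr8:13566948-13677603, ENSMUSG00000031453). It measured 449, 442, 416 and 458 CPM in Ndrg3ctrl and 364, 363, 374 and 365 CPM in Ndrg3TKO. The knockout libraries lay close together and below all controls, 366 ± 5.11 against 441 ± 17.9 CPM (0.830-fold, log2 -0.27, SE 0.0495). With 1 library left out the difference stayed between -0.30 and -0.25 and was past the threshold in 3 of 8 cases, those without Ndrg3ctrl replicate 2 or 3 or Ndrg3TKO replicate 2. In the other 5 it missed the threshold.

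Rasal3, a Ras GTPase-activating protein of blood cells that is abundant in T cells, had similar values in both groups (chr17:32390659-32403583, ENSMUSG00000052142). Its values were 658, 696, 687 and 752 CPM in Ndrg3ctrl and 662, 656, 711 and 694 CPM in Ndrg3TKO (log2 -0.04, SE 0.0595), overlapping between the groups. Its exons share 635 bases (13.0%) with an opposite-strand transcript, CT485616.1, for which no row was matched. Rasa1, the p120 Ras GTPase-activating protein, overlapped too (chr13:85214780-85289130, ENSMUSG00000021549), with 146, 141, 160 and 151 CPM in Ndrg3ctrl and 152, 149, 161 and 158 CPM in Ndrg3TKO (log2 0.05, SE 0.0522).

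Rasa2, a relative of Rasa3 that acts on Ras, leaned the other way from Rasa3 (chr9:96539300-96631617, ENSMUSG00000032413). It gave 163, 161, 178 and 170 CPM in Ndrg3ctrl and 178, 176, 195 and 193 CPM in Ndrg3TKO. The highest control reached the lower knockout libraries (168 ± 7.80 against 186 ± 9.53 CPM, log2 0.14, SE 0.0536), and Rasa2 was not past the threshold.

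Rap1gap2, which returns Rap1 to its GDP-bound form and is known from platelets, was lower in the knockout (chr11:74383356-74610915, ENSMUSG00000038807). Its values were 19.0, 20.6, 17.5 and 22.3 CPM in Ndrg3ctrl and 12.5, 15.8, 14.0 and 12.1 CPM in Ndrg3TKO. All 4 knockout libraries were below all controls, 13.6 ± 1.69 against 19.9 ± 2.06 CPM (0.686-fold, log2 -0.54, SE 0.102, from 377 to 610 counts). The difference was past the threshold in 5 of the 8 fits with 1 library left out and lost without Ndrg3ctrl replicate 4, Ndrg3TKO replicate 1 or Ndrg3TKO replicate 4 (-0.48, -0.51 and -0.49). Platelet and megakaryocyte markers summed to 2.06 to 2.96 CPM in Ndrg3ctrl and 2.42 to 3.44 CPM in Ndrg3TKO, with Pf4 and Ppbp at 0 counts throughout.

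**Figure D2:**
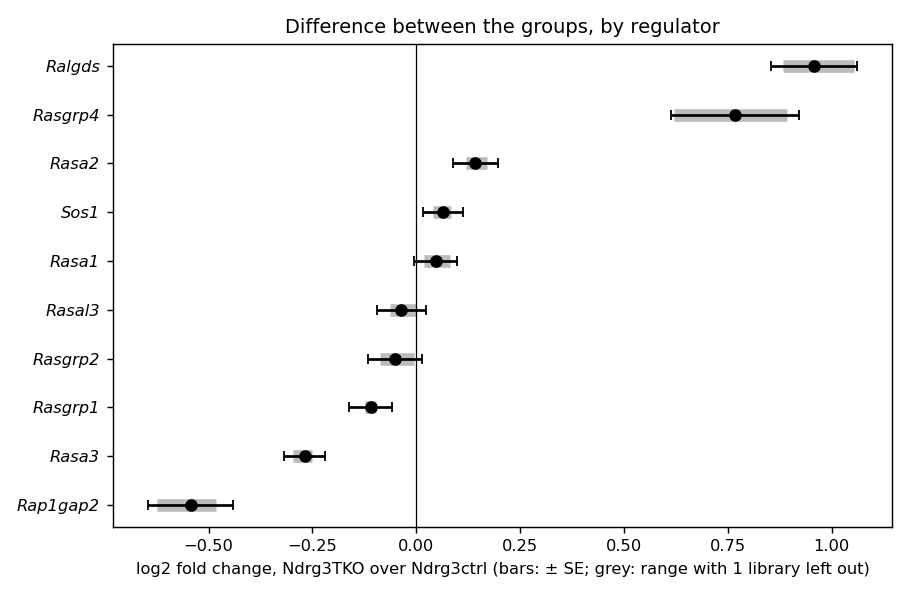
Log2 fold change of each regulator, Ndrg3TKO over Ndrg3ctrl (x axis), with its standard error (bars) and its range when 1 of the 8 libraries was left out (grey). Ralgds, at 0.96, and Rap1gap2, at -0.54, lie at the ends, and the range of Rasal3 touches 0.

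Some genes on the marker lists of other cells differed between the groups. The 5 NK or NKT cell markers summed to 13.5 to 18.9 CPM in Ndrg3ctrl and 7.09 to 9.07 CPM in Ndrg3TKO, most of it Eomes (15.2 and 6.36 CPM on average), while Klrb1c measured 0.305 and 1.77 CPM. Eomes is not particular to NK or NKT cells. The study also stained Eomes within CD8SP thymocytes and reported it reduced there in the knockout. In the thymus, the study's CD1d-tetramer stain found type I NKT cells nearly missing in the knockout. Eomes (lower) and Klrb1c (higher) were past the threshold, and Ncr1 was at 0 counts in all libraries. Klrb1c rested on 3 to 13 counts per library in Ndrg3ctrl and 47 to 66 in Ndrg3TKO. Zbtb16 (0.245 and 0.0558 CPM, 1 to 10 counts) and Klrk1 (0.405 and 0.121 CPM, 0 to 16 counts) went the other way from Klrb1c and were not tested. The B cell list summed to 11.1 to 13.2 and 8.45 to 9.43 CPM, almost all Cd79b, with Ms4a1 at 0. Cd79b, named after its values were seen, was 11.8 ± 1.10 and 8.73 ± 0.528 CPM with all knockout libraries below the controls. Its difference did not pass the threshold (edgeR, adjusted p = 0.0529). The myeloid list did not exceed 1.33 CPM in any library. Double-positive thymocyte markers summed to 21.1 to 31.1 and 25.3 to 35.1 CPM, and γδ T cell markers to 10.7 to 14.0 and 10.6 to 14.4 CPM. Of the 5 double-positive markers, 3 had a higher mean in Ndrg3TKO. Dntt, named after its values were seen, was 15.6 ± 2.12 and 21.3 ± 2.89 CPM with all knockout libraries above the controls. It did not pass the threshold (edgeR, adjusted p = 0.0783). Rag1 (3.31 ± 1.92 and 2.42 ± 1.54 CPM) and Ptcra (0 to 3 counts per library) had lower means in Ndrg3TKO, with overlapping groups. CD4 T cell markers (4.50 to 6.91 and 5.10 to 8.18 CPM), erythroid genes (0.0335 to 0.147 and 0.0307 to 0.232 CPM) and thymic epithelial genes (1.68 to 3.05 and 1.20 to 2.57 CPM) overlapped between the groups. The part of other cells in the values of the 10 regulators was not tested.

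Comparing genes requires a scale per length, here RPKM (CPM divided by exonic length in kilobases), given as the mean over 8 libraries. Rasal3 was highest at 141 RPKM, followed by Rasgrp1 at 123, Rasa3 at 79.3, Rasgrp2 at 39.1, Rasa1 at 20.8, Sos1 at 15.2 and Rasa2 at 11.2 RPKM. Each of these neighbours kept its order in 8 of 8 libraries with no overlap of ranges, although with the length of the longest transcript Rasa2 (26.9 RPKM) stands above Sos1 (19.1 RPKM). Below them came Ralgds, Rap1gap2 and Rasgrp4, whose order differed between the groups. In Ndrg3ctrl they stood at 2.54, 2.77 and 1.53 RPKM and in Ndrg3TKO at 4.91, 1.90 and 2.61 RPKM. Over the 8 libraries the means were 3.72, 2.34 and 2.07 RPKM with overlapping ranges, and with the longest transcript Rasgrp4 (2.85 RPKM) stands above Rap1gap2 (2.55 RPKM). In all, 3 of the 4 regulators past the threshold were the 3 least expressed of the 10. They were also the most variable between mice of a group, with coefficients of variation of 10.4% to 21.5%, against 1.39% to 7.76% for the other 7.

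Each regulator was also expressed as a share of its family's summed RPKM. Rasgrp1 made up 75.6% ± 1.31 of summed RasGRP RPKM in Ndrg3ctrl and 74.3% ± 1.11 in Ndrg3TKO, and Rasgrp2 23.5% ± 1.37 and 24.1% ± 1.07. Rasgrp4 was 0.904% ± 0.162 and 1.63% ± 0.317 of that sum (SD, n = 4). Rasgrp3 had 0 to 3 counts per library, at or below the floor of 3. Sos1 held 79.2% of the Sos1 and Sos2 sum in both groups (SD 1.07 and 1.41).

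Among 10 Ras GTPase-activating proteins, Rasal3 held 52.0% ± 0.996 of summed RPKM in Ndrg3ctrl and 54.2% ± 0.551 in Ndrg3TKO, and Rasa3 31.6% ± 1.23 and 28.1% ± 0.482. Rasa1 held 7.47% ± 0.494 and 8.25% ± 0.0658, and Rasa2 3.87% ± 0.219 and 4.56% ± 0.116, while the family sum ranged from 266 to 290 RPKM in Ndrg3ctrl and from 249 to 266 RPKM in Ndrg3TKO. For Ral exchange factors, Ralgds held 6.04% ± 1.11 of the sum in Ndrg3ctrl and 11.5% ± 1.29 in Ndrg3TKO, and Rgl2, the most abundant, 63.1% ± 2.71 and 57.6% ± 1.66. The sum itself overlapped, 39.7 to 45.3 against 39.4 to 44.7 RPKM. Rap1gap2 was 2.61% ± 0.222 and 1.82% ± 0.221 of the Rap GTPase-activating proteins, of which Sipa1 held 70.1% ± 1.03 and 68.9% ± 1.20. These shares come from the libraries on which the genes were chosen and are descriptions. They also depend on the length used. With the longest transcript Rasa2 moves from 11.2 to 26.9 RPKM and Rasa3 from 79.3 to 91.7 RPKM. A share depends on the rest of its family as well. That of Rasal3 was higher in Ndrg3TKO although its own log2 difference was -0.04.

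**Figure D3:**
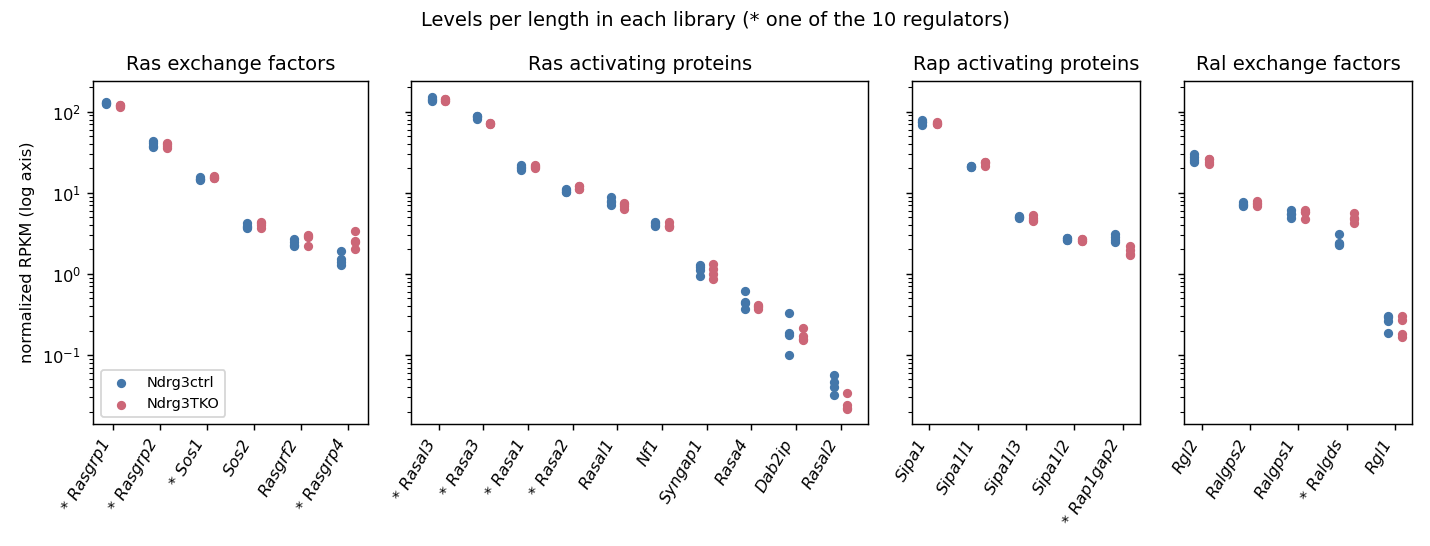
Normalized RPKM (y axis, log scale) of every tested Ras exchange factor, Ras GTPase-activating protein, Rap GTPase-activating protein and Ral exchange factor in each library, by group, with an asterisk on the 10 regulators. Rasgrp4 is the lowest Ras exchange factor shown in both groups (1.53 and 2.61 RPKM), Rap1gap2 (2.77 and 1.90 RPKM) lies beside Sipa1l2 (2.70 and 2.63 RPKM), and Ralgds lies below Rgl2 in both groups.

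Among the other genes of the Ras, Rap and Ral pathways, the differences centred near 0. The 80 genes were listed by function with earlier results of these data known, so the shares given here are descriptions. Of these 80, 74 were tested and 1 passed the threshold (1.35%, beside 1.15% of all tested genes). By edgeR 13 of 74 had an unadjusted p under 0.05 (17.6%, beside 10.9% of all tested genes), and by DESeq2 3 of 75 passed (4.00%, beside 1.93% of 16037). Their median log2 difference was -0.01, and 34 of 74 were positive. Groups did not overlap for 6 of 74, beside 7.04% of all tested genes.

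The single gene was Egr1, an immediate early transcription factor gene induced through ERK. It gave 214, 237, 200 and 181 CPM in Ndrg3ctrl and 170, 155, 162 and 132 CPM in Ndrg3TKO, the knockout libraries all below the controls. It fell from 208 ± 23.7 to 155 ± 16.4 CPM (edgeR quasi-likelihood test, log2 fold change -0.43, SE 0.0889, adjusted p = 0.0422). Over the 8 fits with 1 library left out, the difference lay between -0.49 and -0.36 and the adjusted p between 0.0184 and 0.134. Egr1 passed only without Ndrg3ctrl replicate 4 (0.0184) or Ndrg3TKO replicate 1 (0.0459), and missed the threshold without any 1 of the other 6.

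Upstream of Ras, 9 of 9 adaptor and diacylglycerol genes were tested, with differences from -0.10 to 0.11. Dgka, a diacylglycerol kinase that removes the lipid RasGRP proteins bind, was their most abundant at 185 RPKM. Of the other Ras exchange factors, Sos2 was the highest (4.00 RPKM), and both tested genes were positive with a median of 0.12. The 6 other Ras GTPase-activating proteins, of which Rasal1 had the highest level (7.43 RPKM), were all negative, median -0.18, and none passed the threshold by edgeR or DESeq2, with 2 at an unadjusted p under 0.05. The Ras GTPase list, led by Nras at 47.6 RPKM, ranged from -0.13 to 0.09.

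On the Rap side, Rap1b (98.0 RPKM) led the 5 GTPases, whose differences ran from -0.15 to 0.15. The exchange factors, led by Rapgef6 at 56.6 RPKM, ranged from -0.70 to 0.04 with a median of -0.01. The lowest value was that of Rapgef5, named after its values were seen, which had 11 to 32 counts per library (0.0552 RPKM). It did not pass the threshold (SE 0.277, edgeR adjusted p = 0.353). The GTPase-activating proteins other than Rap1gap2, led by Sipa1 at 73.2 RPKM, ranged from -0.06 to 0.13. The 8 effectors of adhesion, with Tln1 (talin, which activates integrins) at 122 RPKM, ranged from -0.37 to 0.17.

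On the Ral side, Rgl2 was the most abundant exchange factor at 25.7 RPKM, and the tested GTPases and exchange factors ranged from -0.29 to 0.06. The 3 Ral GTPase-activating subunits, led by Ralgapb at 16.0 RPKM, were between 0.03 and 0.08. The 8 RAF, MEK and ERK kinase genes ranged from -0.09 to 0.24 with a median of 0.0017. The highest value was that of Braf, a RAF kinase (SE 0.0617), named after its values were seen, which missed the threshold by edgeR (adjusted p = 0.0951) and passed it under several alternatives. The 13 ERK-induced and feedback genes, Egr1 included, ranged from -0.43 to 0.54 with a median of -0.05, and 5 were positive. Spry2 at 0.54 (SE 0.278, edgeR adjusted p = 0.518) and Spry1 at 0.54 (SE 0.186, adjusted p = 0.270), which encode feedback inhibitors of ERK signalling and are also named after their values were seen, had the opposite sign to Egr1 and did not pass.

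**Figure D4:**
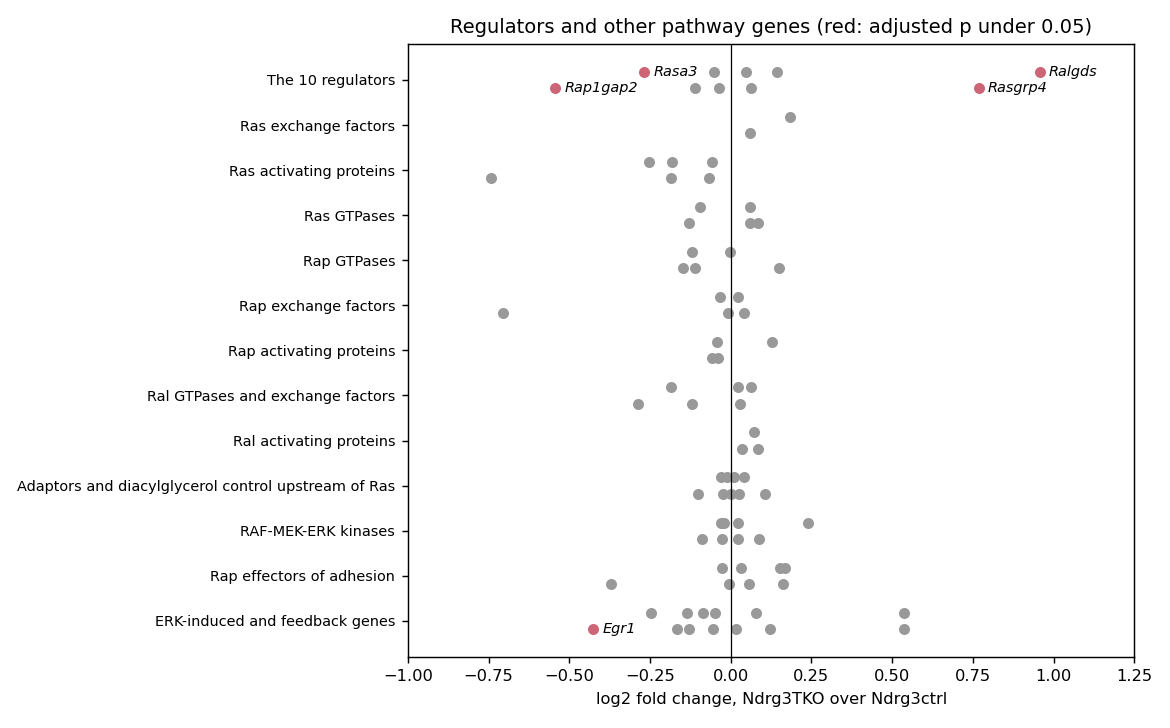
Log2 fold change, Ndrg3TKO over Ndrg3ctrl (x axis), of the 10 regulators and of the 74 tested genes in 12 other pathway lists (rows). Each point is a gene, and red marks an adjusted p under 0.05. The 10 were chosen with this contrast known, and the other lists with earlier results of these data known. Outside the 10, Egr1 at -0.43 is the single red point.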

How the data were processed

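RNA was extracted from sorted thymocytes with the RNeasy Plus Micro Kit, and stranded total RNA libraries were made after ribosomal RNA depletion. Per the labels and the study's methods, the authors used cutadapt for trimming, STAR for alignment to GRCm38.p4 and featureCounts, and deposited raw counts per gene. Whether counting used strand is not given in the sources used here.

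Of 47937 Ensembl IDs, 47224 (98.5%) were matched to symbols. Genes were filtered with filterByExpr, scaled by TMM and tested with edgeR 4.0.16 (quasi-likelihood, robust, R 4.3.3), with Benjamini-Hochberg adjustment over 14633 genes at 0.05. DESeq2 1.42.0, other scalings and filters, a replicate block, a Y-linked covariate and leaving out each library were alternatives. Exonic lengths came from a later GENCODE release on GRCm38 than the one the study names for its counts, so levels per length may differ slightly. No pair of libraries within a group was a duplicate (chi-square per gene 9.98 to 35.2).

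Members and lists were chosen with earlier results of these data known. Named were all 10 regulators, Ndrg3, in each pathway list the genes past the threshold and the one highest per length (for 1 list not reported here), and markers a sentence needed. The floor of 3 counts covers counting error only, whereas SDs and SEs include the spread between mice.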

Additional observations from a re-analysis of the deposited data

How the results depend on the processing

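The 160 log2 differences of the 10 regulators under alternatives all lay within 1 standard error of the reported ones, and 1 changed sign (Rasal3 without Ndrg3ctrl replicate 4, not past the threshold in either). The number of regulators past the threshold was 4 with DESeq2, with 3 other scalings, with both other filters and with the Y-linked covariate, and 1 to 4 with 1 library left out. Over all genes 168 became 309 with DESeq2, 274 without a filter, 437 with the Y-linked covariate, and 90 to 158 with 1 library left out. The split of 116 higher and 52 lower became 191 and 118 with DESeq2, 176 and 98 without a filter, 262 and 175 with the covariate, 435 and 365 with the replicate block, and 72 to 110 and 18 to 48 with 1 library left out. The pathway count of 1 became 3 with DESeq2, 2 without a filter, 2 with the Y-linked covariate and 0 to 1 with 1 library left out. The genes that joined Egr1 were Braf with DESeq2, without a filter and with the covariate, and Apbb1ip with DESeq2, and without Ndrg3TKO replicate 2 the count of 1 was Braf in place of Egr1. They are named after their values were seen, and the cause was not tested.

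Adding a block for the replicate number gave 800 genes past the threshold, against 168. In that replicate block fit 7 pathway genes and 5 regulators passed, the fifth being Rasa2 (edgeR, adjusted p = 0.0296). The labels give no litter or day behind the numbers. Deviations of same-numbered libraries correlated at 0.240, 0.512, -0.0572 and 0.387, and 6 of 8 libraries correlated best with their own number, a hint from the data and not from the design. No scaling moved the median of all genes by more than 0.00859 on the log2 scale. With the longest transcript as length, 9 of 10 levels per length moved by more than their spread. Precision rests on 4 mice per group and, for Rasgrp4, on the fewest counts of the 10 (182 to 647 per library).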
